A study of Mus musculus with 16 samples.

Results

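The mouse major histocompatibility complex (MHC, named H2 in mice) and the genes that prepare and load its peptides were followed in epididymal white adipose tissue, the fat pad beside the epididymis. The set holds 51 of the 20101 genes of the expression table: the 39 whose symbol starts with H2-, and 12 named partners (B2m, Tap1, Tap2, Tapbp, Cd74, Ciita, Nlrc5, Psmb8, Psmb9, Psmb10, Erap1 and Cd1d1). They were chosen by symbol, with earlier results of these data known, and 44 of them have their reference position on chromosome 17. RNA-seq libraries came from 16 mice 21 weeks old, 4 in each of 4 groups: HFD KO, HFD WT, chow KO and chow WT. HFD is a diet with 60% fat, given from the age of 5 weeks, and chow holds 5% fat. KO and WT stand for the titles of the samples, whose target is Apoa4, the gene of the lipid-binding plasma protein apolipoprotein A-IV, while the genotype field of the KO samples calls it a knockdown. The labels used here do not state how Apoa4 was targeted, in which cells, or the strain and sex of the mice.

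Apoa4 RNA ran against the plain reading of those labels. It was 8.69, 9.63, 7.23 and 4.93 FPKM in HFD KO libraries, against 0.29, 0, 0.08 and 0 FPKM in HFD WT libraries. On chow it was 3.59, 1.96, 5.96 and 5.29 FPKM in KO libraries, against 0.29, 0.25, 0.23 and 0.09 FPKM in WT libraries. FPKM divides the fragments of a gene by its length and by the size of the library. Apoa4 was thus higher in every KO-labelled library, and the genotype names are used below as labels only. The FPKM of a library summed to between 413167 and 468186, and 11554 to 13184 genes reached 1 FPKM. Read counts were not used here, so the depth behind each value is unknown. The fat cell gene Adipoq was present in every library (207 to 4573 FPKM). The 10 markers of the neighbouring epididymis reached a sum of 5530 FPKM in the fourth HFD KO library, of 343 FPKM in the second, and of 12599 FPKM in the second chow KO library. They summed to at most 39.2 FPKM in the other libraries.

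Class I molecules pair a heavy chain (H2-K1, H2-D1) with B2m, the light chain, and show peptides from inside the cell to CD8 T cells. The peptides are cut by the proteasome, in which Psmb8, Psmb9 and Psmb10 replace the standard catalytic subunits, carried into the endoplasmic reticulum by the transporter made of Tap1 and Tap2, trimmed by Erap1 and loaded with the help of tapasin (Tapbp). Class II molecules show peptides taken up from outside to CD4 T cells. They are A, which pairs H2-Aa with H2-Ab1, and E, whose beta chain is H2-Eb1. Class II molecules are made mainly by macrophages, dendritic cells and B cells. Cd74, the invariant chain, guards their groove until H2-DM exchanges its remnant for a peptide, and H2-O holds H2-DM back. Ciita switches on class II genes, and its relative Nlrc5 class I genes. The non-classical class I genes (H2-Q, H2-T, H2-M and Cd1d1) are less variable relatives with narrower tasks. In obese fat, macrophages and adipocytes have both been described as sources of class II.

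The stretches before the start sites of 5 of these genes are shown because they carry the letters through which class I and class II genes are known to be controlled. The sequences are the 250 bases before the RefSeq start (GRCm38.p6), 5′ to 3′ along the gene. Capitals mark, on either strand, the X box core TAGNAAC, the Y box ATTGG, enhancer A (the long run of capitals in H2-K1 and H2-D1) and the core of the interferon response element (the long run in H2-T22).
H2-DMb1 (chr17:34152941-34153190, plus strand): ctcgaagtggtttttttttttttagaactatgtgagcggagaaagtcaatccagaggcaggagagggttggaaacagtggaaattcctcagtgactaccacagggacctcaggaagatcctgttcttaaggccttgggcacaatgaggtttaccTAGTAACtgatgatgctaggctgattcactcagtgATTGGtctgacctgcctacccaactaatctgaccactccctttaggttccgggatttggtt
H2-Eb1 (chr17:34305617-34305866, plus strand): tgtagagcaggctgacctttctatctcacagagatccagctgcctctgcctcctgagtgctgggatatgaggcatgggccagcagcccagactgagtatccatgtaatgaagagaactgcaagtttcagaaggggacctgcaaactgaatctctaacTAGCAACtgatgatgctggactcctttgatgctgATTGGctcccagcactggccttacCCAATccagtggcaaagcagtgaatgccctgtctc
H2-K1 (chr17:34000348-34000597, minus strand): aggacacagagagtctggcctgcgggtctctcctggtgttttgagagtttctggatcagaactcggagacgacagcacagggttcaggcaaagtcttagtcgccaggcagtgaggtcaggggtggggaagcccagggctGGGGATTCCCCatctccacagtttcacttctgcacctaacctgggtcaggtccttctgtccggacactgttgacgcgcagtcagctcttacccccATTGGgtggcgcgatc
H2-D1 (chr17:35262844-35263093, plus strand): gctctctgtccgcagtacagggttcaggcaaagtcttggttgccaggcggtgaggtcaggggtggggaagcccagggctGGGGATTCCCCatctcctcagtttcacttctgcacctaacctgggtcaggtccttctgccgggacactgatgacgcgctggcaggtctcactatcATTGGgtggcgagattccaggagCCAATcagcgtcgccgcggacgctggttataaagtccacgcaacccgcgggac
H2-T22 (chr17:36042743-36042992, minus strand): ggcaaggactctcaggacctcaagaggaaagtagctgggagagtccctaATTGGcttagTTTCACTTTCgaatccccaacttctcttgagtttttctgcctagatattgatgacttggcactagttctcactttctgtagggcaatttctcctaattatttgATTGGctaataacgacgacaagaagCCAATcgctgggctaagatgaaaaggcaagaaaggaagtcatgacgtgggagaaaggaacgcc
H2-DMb1 and H2-Eb1, both class II genes, hold an X box followed by a Y box that begins 35 and 34 bases further on. H2-K1 and H2-D1 share enhancer A, which begins 111 and 171 bases before their start sites. H2-T22 holds the interferon core, read on the opposite strand, 191 bases before its start. Only exact matches to this core were marked. Shortly after enhancer A, H2-K1 and H2-D1 hold a lower-case stretch that begins with the same letters as the run in H2-T22 and differs at its end. Variants of the core were not searched for, so the marking does not show that H2-K1 and H2-D1 lack an interferon response element. Of 32851 RefSeq windows of 300 bases around gene starts, 11.4% held the X box, 37.4% the Y box, 4.49% both, 3.44% the interferon core and 0.0304% enhancer A. Of the 40 windows that 37 of the 51 genes have, 7 held the X box, 33 the Y box, 6 both, 4 the interferon core and 4 enhancer A. The 7 with an X box were those of H2-DMb1, H2-Eb1, H2-Eb2 and H2-Ob, and outside class II those of H2-Ke6, H2-M2 and Psmb8. The class II genes H2-Aa, H2-DMa, H2-DMb2 and H2-Oa had no exact match, and variants of the X box were not searched for. The match thus does not set class II genes apart here. A match describes the letters and does not show that a factor binds there.

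Measured per transcript length, the most abundant of the 51 genes was B2m, with 1694 to 5211 FPKM over the 16 libraries. Cd74 came next (480 to 1386 FPKM), then H2-D1 (485 to 1191 FPKM), H2-K1 (309 to 894 FPKM), H2-Aa (217 to 560 FPKM), H2-Ab1 (178 to 588 FPKM) and H2-Eb1 (83.8 to 258 FPKM). These ranges overlap between neighbours, apart from B2m. The 51 genes took between 1.14% and 2.10% of all FPKM of a library. H2-D1 exceeded H2-K1 in all 16 libraries, by a ratio of 1.09 to 2.20. Of the 51, 37 passed the filter of 1 FPKM in at least 4 libraries and were tested. The other 14 were H2-Bl, H2-M1, H2-M5, H2-M9, H2-M10.1, H2-M10.2, H2-M10.3, H2-M10.4, H2-M11, H2-Q2, H2-T3, H2-T18, H2-Ea-ps and H2-Eb2, 12 of them non-classical class I genes. H2-M10.3, H2-M10.4 and H2-M11 were listed at 0 in every library. Bulk RNA was measured, so fewer cells of a type and less RNA per cell cannot be told apart in anything that follows.

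The diet comparison asks which of these genes differ between HFD and chow fat. On HFD, the class II loading subunit H2-DMb1 rose, and H2-T22 and H2-Ke6 fell, under both genotype labels. Cd74, H2-Ab1 and Ciita rose and Cd1d1 and H2-Q10 fell in KO-labelled fat. H2-T24 and Psmb10 rose in WT-labelled fat. The classical class I genes, B2m, Tap1, Tap2, Tapbp, Erap1, Psmb8, Psmb9 and Nlrc5 did not pass the test under either label. In KO-labelled mice 9 of the 37 tested genes passed it, 5 higher and 4 lower on HFD (limma on log2(FPKM + 1), Benjamini-Hochberg adjusted p under 0.05), while 38.9% of all tested genes did, 23.5% higher and 15.3% lower. In WT-labelled mice 6 passed, 4 higher and 2 lower, against 41.9% of all tested genes, 24.6% higher and 17.2% lower. These are 24.3% and 16.2% of the 37, so the counts lie below the background and are no result about the set as a whole. Both counts of higher genes include H2-M2, which passed the filter through HFD libraries alone and so had to differ; without it they are 4 and 3 of 36. The diet groups did not overlap for 6 of the 37 genes in KO-labelled and 10 in WT-labelled mice, H2-M2 among them under both labels, against 28.7% and 46.9% of all tested genes. The median log2 difference of the 37 was −0.06 in KO-labelled and 0.02 in WT-labelled mice, against 0.08 and 0.06 over all tested genes.

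**Figure D1:**
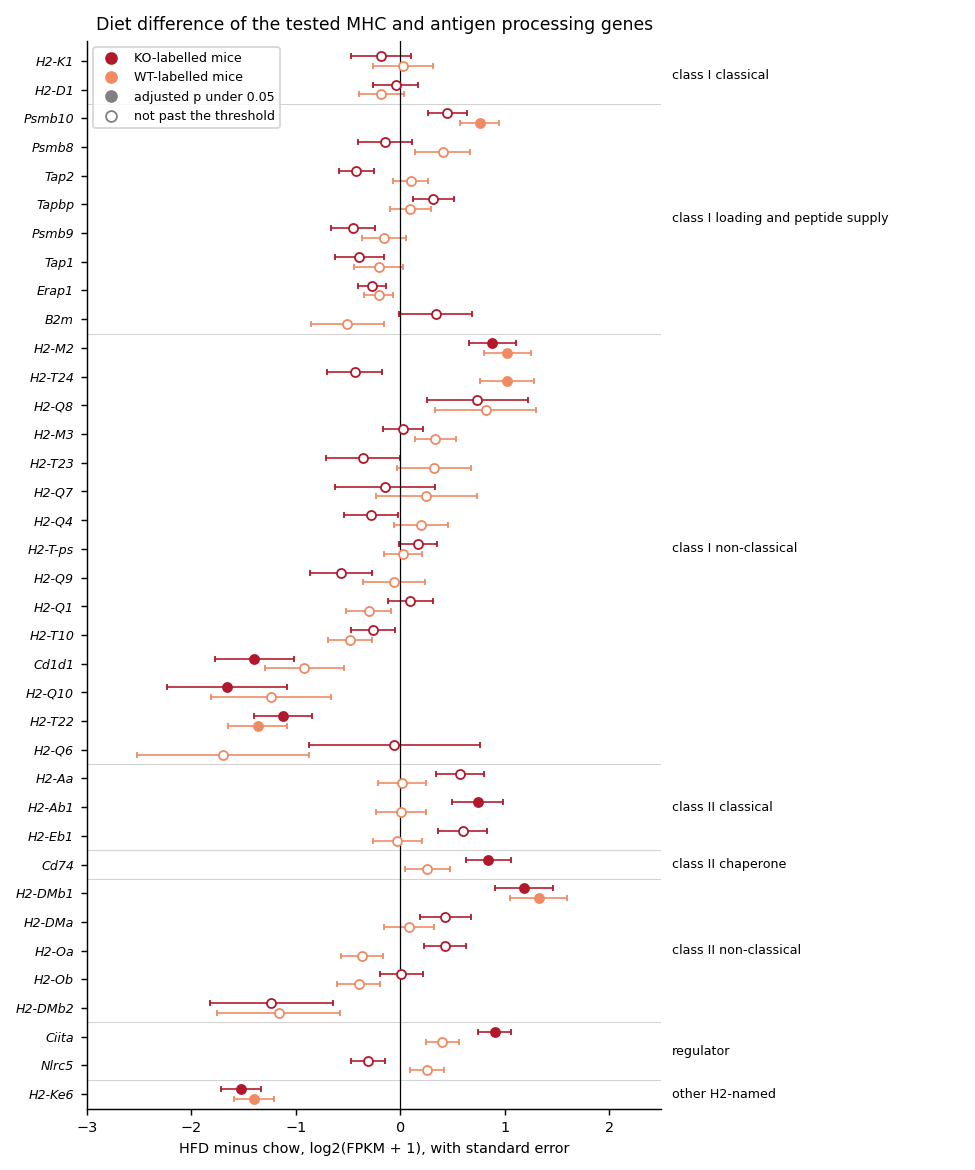
HFD minus chow difference of each of the 37 tested genes on the log2(FPKM + 1) scale with its standard error, grouped by class, for KO-labelled (dark red) and WT-labelled mice (orange). Filled points passed the test. H2-Aa, H2-Ab1, H2-Eb1 and Cd74 lie right of 0 in KO-labelled mice and close to 0 in WT-labelled mice, where Cd74 was at 0.26.

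Class II was examined from its chains to its loading factors. H2-Aa, the alpha chain of the A molecule, had 395, 476, 545 and 436 FPKM in HFD KO libraries, against 425, 378, 217 and 260 FPKM in chow KO libraries. In WT-labelled fat it had 462, 557, 316 and 560 FPKM on HFD, against 541.9, 400.9, 477.7 and 413.8 FPKM on chow. The low values were those of chow KO replicates 3 and 4 and HFD WT replicate 3, and the diet groups overlapped under both labels. The difference was 0.58 ± 0.23 (SE) on the log2 scale in KO-labelled mice (limma, adjusted p = 0.0602) and 0.02 ± 0.23 in WT-labelled mice (adjusted p = 0.954).

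H2-Ab1, the beta chain that pairs with it, was 350, 372, 588 and 472 FPKM in HFD KO libraries, against 324, 352, 178 and 228 FPKM in chow KO libraries. The groups met at about 350 FPKM, and the same 2 chow libraries were lowest. H2-Ab1 rose by 0.74 ± 0.24 on the log2 scale in KO-labelled mice (limma, adjusted p = 0.0252). The call was lost with the 2 groups fitted alone (adjusted p = 0.0717) and without HFD KO replicate 3, chow KO replicate 3 or chow KO replicate 4 (0.60, 0.56 and 0.68, adjusted p = 0.0849, 0.0889 and 0.0675). The difference of H2-Ab1 in WT-labelled mice was 0.01 ± 0.24 (adjusted p = 0.983). H2-Eb1, the beta chain of the E molecule, differed by 0.60 ± 0.23 in KO-labelled mice (adjusted p = 0.0546). It ranged from 159 to 258 FPKM in HFD KO libraries, against 83.8 to 164 FPKM in chow KO libraries. The only E alpha entry of the set, the pseudogene H2-Ea-ps, reached at most 0.09 FPKM. The H2-Eb1 values therefore do not show that an E molecule was made. H2-Ab1 over H2-Aa lay between 0.763 and 1.08 in the 16 libraries, a 1.42-fold range. H2-Eb1 over H2-Aa lay between 0.365 and 0.532, a 1.46-fold range. These ratios were not tested.

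Cd74 stood at 939, 1186, 1268 and 1089 FPKM in HFD KO libraries, against 751, 779, 480 and 526 FPKM in chow KO libraries. All 4 HFD KO libraries were above all 4 chow KO libraries. Cd74 rose by 0.84 ± 0.21 on the log2 scale, or 1.80-fold (limma, adjusted p = 0.00680). In WT-labelled fat it was 1030, 1386, 801 and 1255 FPKM on HFD, against 1051, 815, 1008 and 810 FPKM on chow. These groups overlapped, with a difference of 0.26 ± 0.21 (adjusted p = 0.352). The FPKM ratio of Cd74 to H2-Aa was 2.23 to 2.54 in the 8 HFD libraries, against 1.77 to 2.22 in the 8 chow libraries. The ranges did not overlap but nearly met. Over all 16 libraries this ratio spanned 1.44-fold, much as the ratios between the chains did, and it was not tested.

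Ciita, the class II switch, was 9.75, 7.59, 9.64 and 5.95 FPKM in HFD KO libraries, against 4.17, 3.98, 3.83 and 3.47 FPKM in chow KO libraries. The groups did not overlap, and Ciita rose by 0.90 ± 0.16 on the log2 scale (limma, adjusted p = 0.000867). WT-labelled fat had 4.77, 7.40, 4.59 and 6.49 FPKM on HFD, against 4.78, 3.74, 4.02 and 3.82 FPKM on chow, a difference of 0.40 ± 0.16 that missed the threshold (adjusted p = 0.0549). Whether the diet difference of Ciita itself differed between the labels was tested as an interaction, which was 0.50 ± 0.23 (adjusted p = 0.467).

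Among the class II genes, H2-DMb1 passed the test under both labels. This beta chain of H2-DM was 51.1, 53.8, 75.6 and 57.0 FPKM in HFD KO libraries, against 29.8, 47.2, 14.3 and 19.8 FPKM in chow KO libraries. WT-labelled fat had 84.2, 67.7, 51.04 and 84.2 FPKM on HFD, against 31.1, 24.7, 29.2 and 25.5 FPKM on chow. Under both labels every HFD library exceeded every chow library. H2-DMb1 rose by 1.19 ± 0.28 in KO-labelled mice (limma, adjusted p = 0.00425) and by 1.32 ± 0.28 in WT-labelled mice (adjusted p = 0.00181), which is 2.28-fold and 2.5-fold. Its partner H2-DMa, the alpha chain, averaged 25.7 ± 4.37 FPKM in HFD KO and 19.8 ± 7.83 FPKM in chow KO libraries (SD, n = 4 each), and 26.8 ± 6.45 FPKM in HFD WT and 25.0 ± 4.49 FPKM in chow WT libraries. H2-DMa did not pass the test (limma, adjusted p = 0.175 and 0.807). The FPKM ratio of H2-DMb1 to H2-DMa was 1.88 to 3.55 in the 8 HFD libraries, against 1.03 to 1.65 in the 8 chow libraries, without overlap.

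The other beta chain, H2-DMb2, was lower than H2-DMb1 in all libraries but 1, with 1.22 to 5.46 FPKM in the 8 HFD libraries and 3.05 to 6.56 FPKM in 7 of the 8 chow libraries. Chow KO replicate 2, a library rich in epididymal transcripts, had 49.7 FPKM. Of the 100-base windows of H2-DMb1 transcripts in GENCODE, 11.3% also occur in H2-DMb2, so reads of the pair could be split by the counting. The sum of the pair was 55.2 to 78.8 FPKM in HFD KO libraries, against 96.9 FPKM in chow KO replicate 2 and 20.7 to 33.8 FPKM in the other chow KO libraries. It was 52.3 to 87.1 FPKM in HFD WT libraries, against 28.2 to 36.9 FPKM in chow WT libraries. The H2-O genes, H2-Oa and H2-Ob, stayed between 0.47 and 3.09 FPKM in all libraries and passed no test.

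**Figure D2:**
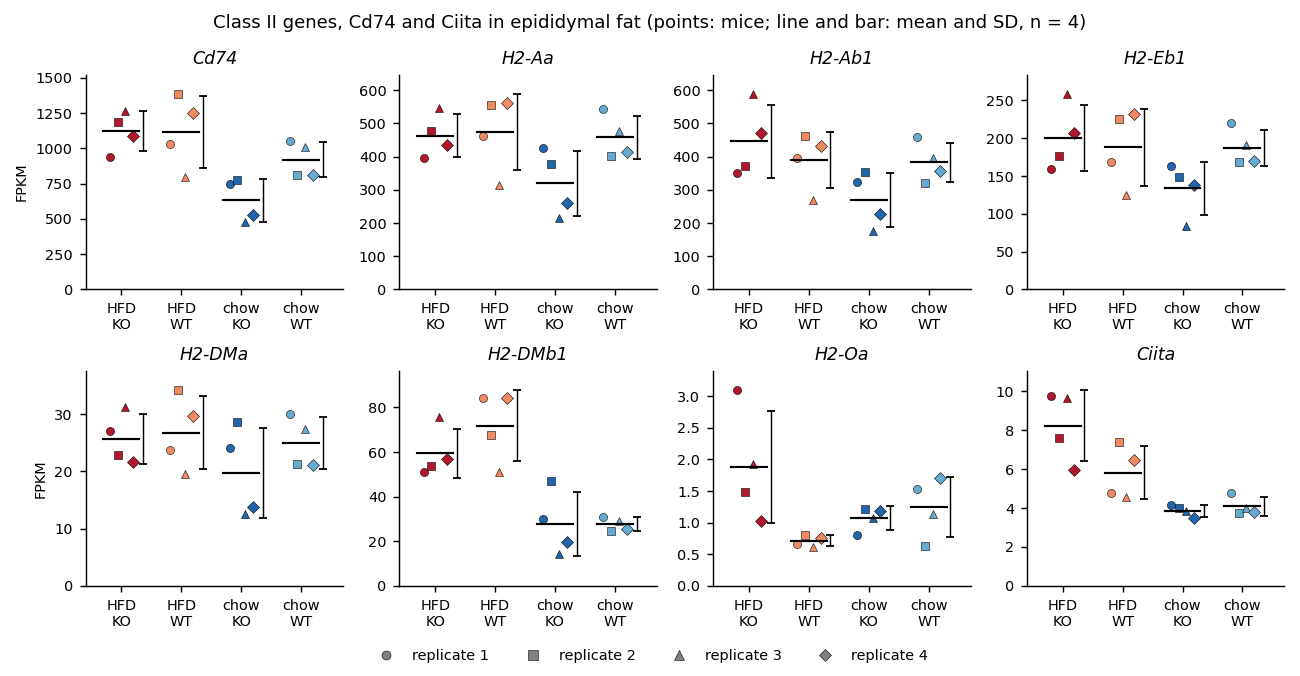
FPKM of 8 class II pathway genes, Cd74 and Ciita among them, in every library by group; marker shapes give the replicate, lines the mean and bars the SD of 4 libraries. H2-DMb1 separates HFD from chow under both labels, and chow KO replicate 3 is the lowest point for H2-Aa, H2-Ab1, H2-Eb1 and Cd74.

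**Figure D3:**
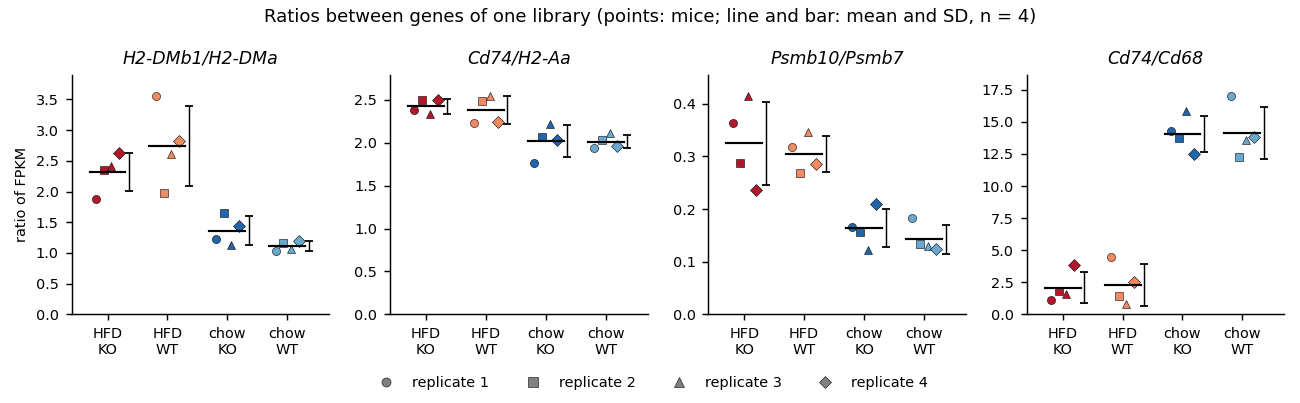
FPKM ratios within a library, by group: H2-DMb1 to H2-DMa, Cd74 to H2-Aa, Psmb10 to the standard subunit Psmb7, and Cd74 to the macrophage gene Cd68. The first 3 are higher in HFD than in chow libraries, and Cd74 to Cd68 is lower, 0.784 to 4.47 against 12.2 to 16.99.

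Genes of macrophages moved with the diet. Of 10 macrophage markers, all tested, 9 rose in KO-labelled and 8 in WT-labelled mice and none fell (limma, adjusted p under 0.05). Of all tested genes 23.5% and 24.6% rose. Their FPKM summed to 1880 to 7085 in HFD KO, 1443 to 6302 in HFD WT, 667 to 804 in chow KO and 808 to 875 in chow WT libraries, and no marker defining them was at 0. Trem2, a receptor of lipid-laden macrophages, rose by 4.76 and Cd68, a lysosomal membrane protein, by 3.72 on the log2 scale in KO-labelled mice (adjusted p = 4.63e-06 and 4.90e-05). H2-Aa and Cd74 did not follow Cd68 in proportion: Cd74 over Cd68 was 0.784 to 4.47 in HFD libraries, against 12.2 to 16.99 in chow libraries. Such a ratio depends on the marker taken. In WT-labelled mice 9 of the 10 markers had a positive difference and 1, Mertk, a negative one. Mertk averaged 16.9 FPKM in HFD WT and 22.8 FPKM in chow WT libraries. The part that macrophage number plays in the class II values was not tested. Of the dendritic cell markers, 8 of 10 were tested, of which 1 rose (Flt3, by 0.70) and 1 fell (Zbtb46, by 0.52) in KO-labelled mice, and none rose and 3 fell in WT-labelled mice. Their sums were 61.6 to 110 FPKM in HFD KO, 32.2 to 151 FPKM in HFD WT, 41.4 to 59.7 FPKM in chow KO and 45.4 to 50.4 FPKM in chow WT libraries. Of the B cell markers, 3 of 8 were tested and none passed in either diet comparison, with sums of 2.25 to 26.1 FPKM over all libraries. Of the T cell markers, 6 of 8 were tested, of which 1 rose in KO-labelled and 3 fell in WT-labelled mice. Called were 25% and 37.5% of the tested dendritic cell markers and 16.7% and 50% of the tested T cell markers. Over all tested genes the shares were 38.9% and 41.9% in KO-labelled and WT-labelled mice. None of the 3 of 6 natural killer cell markers tested, the 6 endothelial markers or the 3 of 10 epididymis markers tested passed a diet test.

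The class II partners outside the set, 17 genes of antigen uptake, cutting and class II control, were all tested. In KO-labelled mice 11 rose and 1 fell, and in WT-labelled mice 11 rose and 2 fell. Called were thus 70.6% and 76.5%, against 38.9% and 41.9% of all tested genes. Ctss, the protease that trims Cd74 to its last remnant, rose by 3.53 and 3.01 on the log2 scale (limma, adjusted p = 2.20e-05 and 4.30e-05). Spi1, the myeloid transcription factor PU.1, rose by 3.28 in KO-labelled mice (adjusted p = 4.06e-05). Irf4, a transcription factor of lymphocytes, dendritic cells and adipocytes, fell by 2.20 in WT-labelled mice (adjusted p = 5.80e-06). It was 2.17 to 4.12 FPKM in HFD WT libraries, against 12.4 to 24.3 FPKM in chow WT libraries.

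Class I heavy chains showed no diet difference past the threshold. H2-K1 was 309, 426, 423 and 717 FPKM in HFD KO libraries, against 425, 393, 443 and 894 FPKM in chow KO libraries. In WT-labelled fat it was 586, 423, 428 and 668 FPKM on HFD, against 591, 443, 585 and 432 FPKM on chow. Groups overlapped throughout, with replicate 4 the highest in HFD KO and chow KO. The differences were −0.18 ± 0.29 and 0.02 ± 0.29 on the log2 scale (limma, adjusted p = 0.646 and 0.954). H2-D1 differed by −0.04 ± 0.22 and −0.18 ± 0.22 (adjusted p = 0.895 and 0.529). B2m, the light chain, had 1694, 5211, 2565 and 4712 FPKM in HFD KO libraries against 2122, 2146, 2482 and 3679 FPKM in chow KO libraries. In WT-labelled fat B2m was 4064, 2327, 2192 and 3008 FPKM on HFD and 5061, 3752, 4033 and 3302 FPKM on chow. The diet groups overlapped under both labels, and HFD KO held both the lowest and the highest value of all 16 libraries. Its differences were 0.34 ± 0.35 and −0.50 ± 0.35 (adjusted p = 0.464 and 0.263).

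Among the 8 genes of the light chain, peptide cutting, transport and loading, 1 passed a diet test. Psmb10, an inducible proteasome subunit, was 31.4, 24.4, 31.3 and 28.7 FPKM in HFD WT libraries, against 21.6, 15.2, 15.3 and 15 FPKM in chow WT libraries. The groups did not overlap, and Psmb10 rose by 0.76 ± 0.19 on the log2 scale (limma, adjusted p = 0.00484). In KO-labelled fat it averaged 26.6 ± 6.01 FPKM on HFD and 19.3 ± 5.13 FPKM on chow (SD, n = 4 each), a difference of 0.45 ± 0.19 (adjusted p = 0.0686). Tap2, a transporter subunit, differed by −0.42 ± 0.17 in KO-labelled mice (adjusted p = 0.0606). Tap1, Tapbp, Erap1, Psmb8, Psmb9 and B2m had log2 differences between −0.50 and 0.41 in the 2 diet comparisons.

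Each inducible subunit was also set against the standard subunit whose place it takes, as a log2 ratio in each library, with 3 ratios in 4 comparisons. Psmb10 over Psmb7 was 0.237 to 0.414 in HFD KO libraries against 0.122 to 0.210 in chow KO libraries, and 0.268 to 0.347 in HFD WT libraries against 0.124 to 0.183 in chow WT libraries. The log2 ratio differed by 0.96 and 1.07, without overlap of groups (2-sided exact permutation test, p = 0.0286 each, the smallest that 4 against 4 allows, adjusted p = 0.0857 over 12 tests). Psmb8 over Psmb5 was 0.375 to 0.383 in HFD WT libraries, below all 4 chow WT libraries (0.411 to 0.745) and below all 4 HFD KO libraries (0.401 to 0.646). Its log2 difference was −0.46 for HFD against chow in WT-labelled mice and 0.51 for KO against WT on HFD (exact permutation p = 0.0286, adjusted p = 0.0857 each). Psmb9 over Psmb6 overlapped in all 4 comparisons, and none of the 12 tests passed after adjustment. Of the 3 standard subunits, Psmb7 fell in both diet comparisons, by 0.51 in KO-labelled and 0.30 in WT-labelled mice (limma, adjusted p = 0.00193 and 0.0285). Psmb5 rose by 0.86 in WT-labelled mice (adjusted p = 0.000825).

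The 14 class I partners outside the set were all tested, and 3 rose in KO-labelled and 5 in WT-labelled mice, with none lower. These are 21.4% and 35.7%, against 38.9% and 41.9% of all tested genes called in either direction. Calr, the chaperone calreticulin of the loading complex, rose by 1.03 and 1.08 on the log2 scale (limma, adjusted p = 0.00453 and 0.00290), and Pdia3, which holds its disulphide bonds, by 1.07 and 1.01 (adjusted p = 0.00343 and 0.00401). Of 20 interferon gamma pathway genes 19 were tested. In KO-labelled mice 2 rose and 7 fell, and in WT-labelled mice 3 rose and 3 fell. Called were thus 47.4% and 31.6%, against the same 38.9% and 41.9% of all tested genes. Gbp7, an interferon-induced GTPase, fell by 1.05 in KO-labelled mice (adjusted p = 0.000617), and Ifngr2, a receptor chain, rose by 1.41 in WT-labelled mice (adjusted p = 0.00135). Nlrc5, the class I switch, was 4.80, 3.75, 4.86 and 4.08 FPKM in HFD KO libraries, against 7.36, 5.26, 3.99 and 6.42 FPKM in chow KO libraries. Its differences, −0.31 ± 0.16 in KO-labelled and 0.26 ± 0.16 in WT-labelled mice, did not pass (adjusted p = 0.146 and 0.218).

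**Figure D4:**
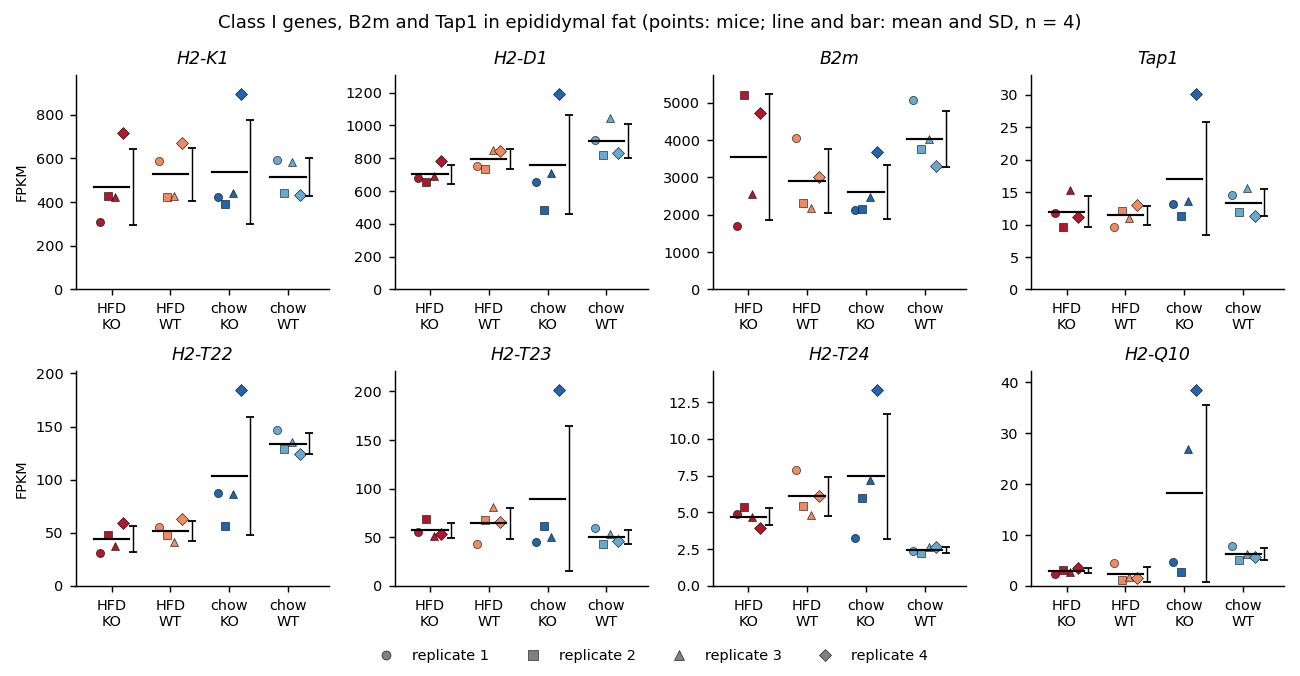
FPKM of 8 class I pathway genes, B2m and Tap1 among them, in every library by group; marker shapes give the replicate, lines the mean and bars the SD of 4 libraries. H2-T22 is lower on HFD under both labels, H2-T24 is lowest in chow WT libraries (2.23 to 2.63 FPKM), and chow KO replicate 4 stands above its group in most panels.

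The non-classical class I genes, 15 of the 25 tested class I and loading genes, had diet calls in both directions. H2-T22, a class I relative bound by some gamma delta T cells, was 31.3, 47.8, 37.4 and 59.4 FPKM in HFD KO libraries, against 87.9, 56.1, 86.8 and 184 FPKM in chow KO libraries. In WT-labelled fat it was 55.2, 47.6, 41.7 and 62.7 FPKM on HFD, against 147, 129, 135 and 124 FPKM on chow. The WT groups were far apart, and the KO groups met at chow KO replicate 2. H2-T22 fell by 1.12 ± 0.28 in KO-labelled mice and by 1.37 ± 0.28 on the log2 scale in WT-labelled mice (limma, adjusted p = 0.00613 and 0.00157). Of its 100-base windows in GENCODE, 31.5% also occur in another gene, 24% in A930015D03Rik, so its level depends on how the authors' counting shared such reads.

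Cd1d1, which shows lipids to natural killer T cells, was 21.1, 41.2, 40.4 and 54.9 FPKM in HFD KO libraries, against 105, 58.3, 113 and 143 FPKM in chow KO libraries. Every HFD KO library was below every chow KO library, and Cd1d1 fell by 1.40 ± 0.38 (limma, adjusted p = 0.00944). In WT-labelled fat it was 131, 43.5, 35.5 and 82.0 FPKM on HFD, against 110, 125, 137 and 118 FPKM on chow, and HFD WT replicate 1 lay within the chow range. The difference there was −0.92 ± 0.38 (adjusted p = 0.0620). Adipocyte markers fell with the diet as well: 6 of 8, all tested, were lower on HFD under each label. Of all tested genes 15.3% and 17.2% were lower. Their sums were 3410 to 14930 FPKM in HFD KO, 5542 to 18093 FPKM in HFD WT, 16503 to 38635 FPKM in chow KO and 31351 to 33657 FPKM in chow WT libraries. HFD WT replicate 1 had the most Adipoq of the 8 HFD libraries, 1909 FPKM. The part that adipocyte number plays in the values of Cd1d1 and H2-T22 was not tested.

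H2-M2 was close to absent on chow. It was 0.66, 1.64, 1.30 and 0.64 FPKM in HFD KO libraries, against 0.15, 0.11, 0.13 and 0 FPKM in chow KO libraries. The values in WT-labelled fat were 0.75, 1.93, 0.57 and 2.08 FPKM on HFD, against 0.06, 0.05, 0.17 and 0.11 FPKM on chow. No HFD library overlapped a chow library. The 4 libraries that reached 1 FPKM, and so brought H2-M2 past the filter, were all HFD libraries, and its test among the filtered genes is therefore no support for the difference. In the fit with no filter on low values H2-M2 was higher by 0.88 and 1.03 on the log2(FPKM + 1) scale in KO-labelled and WT-labelled mice (limma, adjusted p = 0.00792 and 0.00272). The pseudocount of 1 compresses such low values: with a pseudocount of 0.1 the differences were 2.54 and 2.71.

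H2-Q10, a secreted class I molecule known from the liver, was 2.32, 3.20, 2.79 and 3.48 FPKM in HFD KO libraries, against 4.70, 2.73, 26.9 and 38.4 FPKM in chow KO libraries. Chow KO replicates 3 and 4 alone exceeded 7.83 FPKM, and the KO groups overlapped. The fall of 1.66 ± 0.58 (limma, adjusted p = 0.0337) became a difference of −0.23 (adjusted p = 0.613) without those 2 libraries. It also missed the threshold without chow KO replicate 3 or 4 alone (−1.27 and −1.10, adjusted p = 0.113 and 0.115), without HFD KO replicate 1, 2 or 3, with no filter on low values (adjusted p = 0.0599) and with the 2 groups fitted alone (adjusted p = 0.110). In WT-labelled fat H2-Q10 was 1.19 to 4.55 FPKM on HFD and 5.09 to 7.83 FPKM on chow (adjusted p = 0.0975). Alb, a liver gene added to the lists after the values of H2-Q10 were seen, was 11.7 and 13.6 FPKM in those 2 libraries and 24.3 to 165 FPKM in chow WT libraries. The liver list (Alb, Apoa1, Apoa2, Ttr and Fgb, all tested) had none called in KO-labelled and 4 lower on HFD in WT-labelled mice, where 17.2% of all tested genes were lower. The part of liver RNA in the H2-Q10 values was not tested.

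H2-T24 was 7.91, 5.46, 4.85 and 6.14 FPKM in HFD WT libraries, against 2.35, 2.23, 2.62 and 2.63 FPKM in chow WT libraries. The groups were apart, and H2-T24 rose by 1.02 ± 0.26 on the log2 scale in WT-labelled mice (limma, adjusted p = 0.00624). In KO-labelled fat it was 4.92, 5.34, 4.70 and 3.91 FPKM on HFD, against 3.27, 5.99, 7.23 and 13.3 FPKM on chow, a difference of −0.44 ± 0.26 (adjusted p = 0.198). The interaction of diet and label, −1.46 ± 0.37, did not pass either (adjusted p = 0.149).

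H2-T23, the Qa-1 heavy chain that engages receptors of natural killer cells, ranged from 42.8 to 81.3 FPKM in 15 libraries and was 201 FPKM in chow KO replicate 4. H2-M3, which shows formylated peptides, stayed between 4.20 and 9.13 FPKM. The H2-Q6 to H2-Q9 genes resemble each other, with 13% of the windows of H2-Q6 and 12% of those of H2-Q7 found in another gene. H2-Q6 shared most with H2-Q7 (8.36%), and H2-Q7 with H2-Q10 (5.56%). H2-Q8 and H2-Q9 had no GENCODE transcripts to compare, so windows shared with them could not be counted and the true shares may be larger. H2-Q6 was listed at 0 in 7 libraries, all 4 HFD WT libraries among them. The sum of these 4 genes was 13.8 to 45.7 FPKM in HFD KO, 21.3 to 42.2 FPKM in HFD WT, 12.6 to 65.9 FPKM in chow KO and 17.6 to 43.5 FPKM in chow WT libraries, overlapping throughout. Of 8 class I-like genes outside the H2 names 7 were tested, and 2 rose and 1 fell under each label. That is 42.9% called under each, against 38.9% and 41.9% of all tested genes. Ulbp1, a ligand of the NKG2D receptor, rose by 2.09 and 1.91 on the log2 scale (limma, adjusted p = 5.91e-05 and 6.67e-05).

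H2-Ke6 carries an H2 name from its place in the complex but encodes a hydroxysteroid dehydrogenase, not a presenting molecule. It was 10.4, 21.4, 11.3 and 19.1 FPKM in HFD KO libraries, against 44.7, 38.2, 43.6 and 53.9 FPKM in chow KO libraries. The values in WT-labelled fat were 15.9, 12.2, 13.95 and 14.7 FPKM on HFD, against 44.2, 36.3, 37.9 and 38.2 FPKM on chow. The diet groups did not overlap under either label, and H2-Ke6 fell by 1.53 ± 0.19 and 1.40 ± 0.19 on the log2 scale (limma, adjusted p = 9.70e-05 and 0.000108). Of its windows 61.6% also occur in Gm20427, a locus that runs through it. Without H2-Ke6, 8 and 5 of 36 tested genes passed the diet tests, H2-M2 among them under both labels.

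The comparison of the labels asks what differs between KO-labelled and WT-labelled fat. On HFD none of the 37 genes passed (limma). At an unadjusted p under 0.05 there were 4 (10.8%), against 11.8% of all tested genes. Past the adjusted threshold were 0.0316% of all tested genes, 0.0237% higher and 0.00789% lower in KO-labelled mice. The genes H2-Oa and H2-Ob had all 4 HFD KO libraries above all 4 HFD WT libraries, 1.03 to 3.09 against 0.62 to 0.81 FPKM and 0.83 to 1.77 against 0.47 to 0.73 FPKM. They were 2 of 37 genes (5.41%) whose groups lay apart, both above, against 5.81% of all tested genes above and 1.02% below, a share close to the background. Their differences were 0.70 ± 0.20 and 0.52 ± 0.21 on the log2 scale (adjusted p = 0.302 and 0.365). Both encode H2-O, which is known mainly from B cells and thymic epithelium. The B cell markers summed to 4.81 to 16.97 FPKM in HFD KO and 2.25 to 4.90 FPKM in HFD WT libraries, and their part in the H2-O values was not tested.

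On chow 1 of the 37 genes passed, against 1.41% of all tested genes, 0.426% higher and 0.979% lower in KO-labelled mice. This was H2-T24, with 3.27 to 13.3 FPKM in chow KO and 2.23 to 2.63 FPKM in chow WT libraries. It was higher in all 4 KO libraries, by 1.16 ± 0.26 on the log2 scale (limma, adjusted p = 0.0397). The call was lost in 11 of the 16 fits that left out a library, and over the 16 the difference lay between 0.86 and 1.44. None of the 9 tested class II genes with Cd74 passed, 7 with a negative and 2 with a positive difference. The 3 chain genes and Cd74 had an unadjusted p under 0.05: Cd74 differed by −0.56 ± 0.21 (adjusted p = 0.246), H2-Aa by −0.56 ± 0.23 (adjusted p = 0.280), H2-Ab1 by −0.54 ± 0.24 (adjusted p = 0.316) and H2-Eb1 by −0.52 ± 0.23 (adjusted p = 0.324). The groups of Cd74 and H2-Eb1 did not overlap, 2 of 37 genes (5.41%) apart in this direction, against 6.25% of all tested genes. H2-DMa differed by −0.39, H2-DMb1 by −0.12, H2-Oa by −0.09, H2-Ob by 0.11 and H2-DMb2 by 0.58. At an unadjusted p under 0.05 there were 7 of the 37 genes (18.9%), against 14.7% of all tested genes. The partner Irf4 fell by 1.78, with 3.08 to 5.40 FPKM in chow KO and 12.4 to 24.3 FPKM in chow WT libraries (adjusted p = 0.000441). The interaction was past the threshold for none of the 37 genes (limma). At an unadjusted p under 0.05 there were 6 (16.2%), against 10.1% of all tested genes. The adjusted threshold was passed by 0.292% of all tested genes, 0.253% with a positive and 0.0395% with a negative interaction. Irf4 was among those, with 1.65 (adjusted p = 0.0248).

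A few chow KO libraries carried much of the variation of the set. Chow KO replicate 4 was the highest of the 16 libraries for 20 of the 37 genes, and for 19 of the 25 class I and loading genes, while it was highest for 5.53% of all tested genes. It had 201 FPKM of H2-T23, 72.1 FPKM of Psmb8 and 30.1 FPKM of Tap1, against 45.6 to 61.4, 29.1 to 30.8 and 11.3 to 13.7 FPKM in the other chow KO libraries. The interferon gamma pathway genes summed to 516 FPKM in it, against 304 to 434 FPKM in the other 15 libraries. Chow KO replicate 3 was the lowest of the 16 for 6 of the 9 class II genes with Cd74, while it was lowest for 14.3% of all tested genes. Neither library is rich in epididymal transcripts, whose markers summed to 1.39 and 0.78 FPKM in replicates 3 and 4.

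The diet comparison in KO-labelled mice was repeated without these libraries, an alternative added after seeing the data that leaves 2 chow KO libraries. Without chow KO replicates 3 and 4, 22.4% of all tested genes passed in place of 38.9%, 2 of the 37 genes were higher (Ciita and Tapbp) and 2 lower (H2-Ke6 and H2-DMb2), and the differences of Cd74, H2-Ab1 and H2-DMb1 were 0.54, 0.37 and 0.63 (limma, adjusted p = 0.114, 0.305 and 0.0688). Those of Cd1d1, H2-T22 and H2-M2 were −1.05, −0.70 and 0.84 (adjusted p = 0.117, 0.0566 and 0.0545). The difference of H2-M2 hardly moved, and the part of the smaller number of libraries in the lost calls was not tested. Without chow KO replicate 2, the library with the most epididymal RNA, 9 genes were higher and 7 lower in KO-labelled mice, H2-Aa and H2-Eb1 among the higher ones, while 44.3% of all tested genes passed. Without all 3 libraries with epididymal genes 8 were higher and 4 lower, while 50.1% of all tested genes passed. Ciita and H2-Ke6 in KO-labelled mice, and all 6 genes called in WT-labelled mice, kept their calls under every alternative in which they were tested. H2-M2 is among those 6, and since it passed the filter through HFD libraries alone, its kept call is no support.

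**Figure D5:**
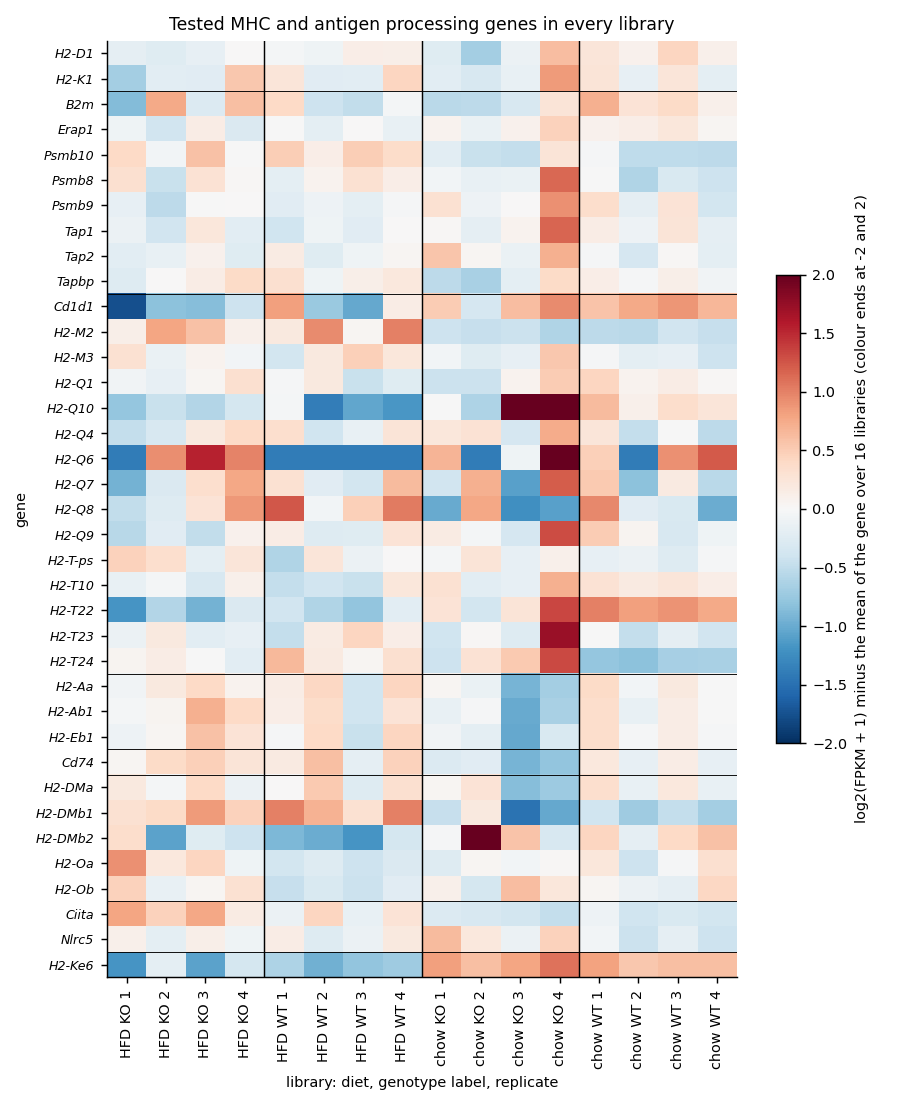
Each tested gene in each library as log2(FPKM + 1) minus its mean over 16 libraries, with groups side by side and classes separated by lines. Chow KO replicate 4 is red for most class I genes, and chow KO replicates 3 and 4 are blue for H2-Aa, H2-Ab1, H2-Eb1 and Cd74.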

How the data were processed

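RNA-seq of epididymal fat from 16 mice was analysed, with 4 mice in each of 4 groups. The authors deposited gene FPKM values, not counts, made from reads aligned with STAR 2.7 to GRCm38.p6 (mm10), per the submitters' processing notes. For the quantifier, annotation and strand setting the labels name nothing, and how reads of similar genes were shared out is unknown. From the table, 14408 circular RNA entries and 1 blank row were left out and 26 gene symbols turned into dates were restored, leaving 20101 genes.

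Values were tested as log2(FPKM + 1) in limma 3.58.1 (R 4.3.3), which understates the fold of low genes. Genes with at least 1 FPKM in at least 4 libraries were kept (12667). One model with 4 group means and a variance trend gave 5 comparisons, with Benjamini-Hochberg adjustment over all tested genes and a threshold of 0.05. Proteasome ratios were tested by exact permutation (scipy 1.17.1, Python 3.11.15). The steps were tested on simulated data. Transcript windows of 100 bases came from GENCODE and promoters from RefSeq. The genes, gene lists and marker lists were chosen with earlier results of these data known. Outside the set, a list's genes were named by the smallest p among those past the threshold, at most 2 in a comparison. Irf4, Adipoq, Lep and the liver list were named after their values were seen.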

Additional observations from a re-analysis of the deposited data

Results flagged for a closer look

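Among 148 groups of 4 libraries of the tested genes, 9 held a value far from the other 3 by Dixon's criterion. Chance meets it in about 1 group in 20 where values are normally distributed, and 9 of 148 is near that share. The criterion was applied to FPKM without a log, and genes of 1 library are not independent. Chow KO replicate 4 accounted for 5 of the 9 groups. It had 894 FPKM of H2-K1 (393 to 443 FPKM in the other chow KO libraries), 21.4 FPKM of H2-Q6 (0 to 3.19 FPKM), 201 FPKM of H2-T23 (45.6 to 61.4 FPKM), 72.1 FPKM of Psmb8 (29.1 to 30.8 FPKM) and 30.1 FPKM of Tap1 (11.3 to 13.7 FPKM). Chow KO replicate 2 had 49.7 FPKM of H2-DMb2 (3.05 to 6.46 FPKM) and 14.4 FPKM of H2-Q8 (2.83 to 3.44 FPKM). HFD WT replicate 4 had 1.3 FPKM of H2-T10 (0.42 to 0.5 FPKM), and chow WT replicate 1 had 21.6 FPKM of Psmb10 (15 to 15.3 FPKM).

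H2-Q2, which was under the filter on low values, stood above the WT-labelled libraries of the same diet in 2 libraries with epididymal genes. It was 1.29 FPKM in HFD KO replicate 4, against at most 0.06 FPKM in HFD WT libraries, and 2.93 FPKM in chow KO replicate 2, against at most 0.15 FPKM in chow WT libraries. The part of epididymal RNA in these values was not tested.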

How the results depend on the processing

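Of the 16 gene results past the threshold none turned its sign, and 8 kept their call in each of 12 other settings in which they were tested, in each fit without 1 library and without chow KO replicates 3 and 4. H2-M2 in WT-labelled mice is among the 8, and its call is no support because the filter favoured it. In KO-labelled mice the 5 genes higher on HFD became 8 at a threshold of 0.1, 8 without the 3 libraries with epididymal genes and 2 without chow KO replicates 3 and 4, and ranged from 4 to 9 with 1 library left out. The 4 lower genes became 8 under quantile normalization and 2 without chow KO replicates 3 and 4, and ranged from 3 to 7, with 7 without chow KO replicate 2. In WT-labelled mice the 2 lower genes became 6 with the 2 groups fitted alone, 5 at a threshold of 0.1, 5 without the 3 libraries and 4 without chow KO replicates 3 and 4, and ranged from 2 to 5, with 5 without chow KO replicate 2 or 4. For KO against WT on chow the 1 higher gene, H2-T24, became 0 under median-of-ratios scaling, quantile normalization, no filter, the replicate block, the 2 groups alone and without the 3 libraries, and ranged from 0 to 1 with 1 library left out. Without chow KO replicates 3 and 4 the 1 gene was Nlrc5. The interaction had 0 to 1 lower genes, the 1 being H2-T24 without chow KO replicate 1. The cause of these changes was not tested. Same-numbered libraries correlated between −0.63 and 0.37, and 4 of 16 correlated best with their own number, so the replicate number was not taken as a pairing. With the replicate block the adjusted p of H2-T24 on chow was 0.0788 (limma) and the counts of the diet comparisons were 5, 4, 4 and 2. Quantile normalization moved the median of all genes by −0.15 in KO-labelled and −0.11 in WT-labelled mice and turned the sign of 3 and 6 of the 37 genes. The share of higher genes among all called was 60.5% and became 49.9% under median-of-ratios scaling and 42.3% under quantile normalization in KO-labelled mice; it was 58.8% and became 45.8% under quantile normalization in WT-labelled mice. Without counts the depth is unknown, so genes near 0 FPKM, such as H2-M2, carry an error that cannot be given.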
